A study of Sus scrofa with 8 samples.

Results

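The hepatic expression of 10 genes that make triglyceride or load it into lipoproteins was examined in pigs before and after diet-induced steatosis. They comprise GPAM and GPAT4 for the first acylation of glycerol 3-phosphate, AGPAT2 for the second, LPIN1 and LPIN2 for the removal of phosphate, DGAT1 and DGAT2 for the last acylation, MOGAT1 and MOGAT2 for the route from monoacylglycerol, and MTTP for lipoprotein loading. They were taken by symbol and are 10 of the 18103 genes listed in the deposited expression table, each with a single row.

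RNA from liver was sequenced in 8 libraries, each a pool of equal amounts from 2 male Landrace x Large White pigs. The 4 pools of the initial state came from healthy pigs 4 months old on a standard diet, sampled by biopsy. The 4 pools of steatosis came from pigs 6 months old after 2 months on a diet rich in saturated fat, fructose, cholesterol and cholate and poor in methionine and choline, sampled after euthanasia. The study describes both states in the same animals, all fasted overnight before sampling, without stating which pigs share a pool number. Diet, age and mode of sampling changed together, so their effects cannot be told apart, and no group of 6-month-old pigs on the standard diet was analysed here. A replicate is a pool of 2 pigs, and every SD is between 4 pools. Expression is given as FPKM, fragments scaled by transcript length and by the mapped fragments of the library, a level that allows genes to be set against each other.

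Hepatocytes build triglyceride by adding fatty acids stepwise to glycerol 3-phosphate, through lysophosphatidic acid, phosphatidic acid and diacylglycerol. Each step has several isozymes that differ in location and regulation, and phosphatidic acid and diacylglycerol are also the precursors of phospholipids. The triglyceride is then stored in droplets or transferred by the microsomal triglyceride transfer protein, encoded by MTTP, onto apolipoprotein B and exported as very low density lipoprotein, VLDL. A second route, best known from the absorptive cells of the intestine, starts from monoacylglycerol.

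The tissue label was checked against markers fixed for each cell type. Of 12 hepatocyte markers all were present, led by ALB with a mean of 50413 FPKM in the initial state and 37499 FPKM in steatosis, and their summed FPKM ranged between 68780 and 102094 initially and between 62805 and 73899 in steatosis. Among enterocyte markers only APOA4 and VIL1 exceeded 1 FPKM in any library, and SI, MEP1A, FABP2, RBP2 and CDX2 measured at most 0.34 FPKM. The enterocyte markers summed to 1466 to 2557 FPKM initially and 320.1 to 1029 FPKM in steatosis. Most of that sum was APOA4, with means of 2028 and 614 FPKM, whereas VIL1 had means of 1.15 and 8.39 FPKM. By the limma test described below, 9 of 12 macrophage markers were higher in steatosis (beside 26.7% of all genes tested) and 0 lower (beside 2.28%). Under the median ratio scaling described below 6 were higher (beside 11.6%) and 0 lower (beside 9.85%). Their sum lay between 809.3 and 1084 FPKM initially and between 1424 and 1594 FPKM in steatosis. The part of this difference in the results below was not tested. Pool 1 of the initial state stood apart. Its 11 listed skeletal muscle markers summed to 2864 FPKM, against 1.25 to 21.59 FPKM in the other initial pools and 0.34 to 0.95 FPKM in steatosis, and its 10 stomach markers to 2219 FPKM, against 0.51 to 40.18 FPKM and 0.27 to 0.61 FPKM. The 10 adipose markers summed to 126.6 FPKM in that pool, against 49.38 to 58.19 FPKM in the other initial pools and 112.7 to 169.2 FPKM in steatosis. Among them ADIPOQ measured 27.92 FPKM in that pool and at most 0.6 FPKM in any other. FABP4 (44.73 FPKM), CFD (24.02), LIPE (3.14), CIDEA (2.4) and LEP (0.4) were also highest in that pool among the initial pools. PLIN1, CIDEC and RETN lay within the range of the other initial pools, and in THRSP that pool was the lowest of the initial pools. By the same limma test, beside the same shares, hepatocyte markers gave 2 higher and 2 lower of 13 rows tested (0 higher and 3 lower under median ratio scaling). Adipose markers gave 2 higher and 0 lower of 7, and enterocyte markers 1 higher and 1 lower of 3. Skeletal muscle markers gave 0 higher and 1 lower (ACTA1) of 2, while 0 of the stomach markers passed the filter. ACTA1 measured at most 0.04 FPKM in steatosis and passed the filter only through the initial pools, which fixed its direction. Without pool 1 of the initial state 0 skeletal muscle markers were lower. Results are also given without pool 1 of the initial state where it matters.

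Across the 8 libraries the route was unevenly expressed. In the initial state DGAT2 led with 105 ± 33.3 FPKM, followed by MTTP with 96.3 ± 10.6, GPAT4 with 72 ± 11.7, AGPAT2 with 43.5 ± 6.83, LPIN2 with 22.5 ± 14.9, MOGAT1 with 15.7 ± 3.35, GPAM with 14.7 ± 5.54, DGAT1 with 9.6 ± 0.627, LPIN1 with 3.72 ± 3.75 and MOGAT2 with 0.07 FPKM. The pools of neighbouring genes in this order did not overlap between MTTP and GPAT4, GPAT4 and AGPAT2, GPAM and DGAT1, and LPIN1 and MOGAT2, whereas the other neighbours overlapped. In steatosis the order was DGAT2, MTTP, AGPAT2, GPAT4, GPAM, LPIN2, MOGAT1, DGAT1, LPIN1 and MOGAT2. There, DGAT2, MTTP, AGPAT2 and GPAT4 formed a run of overlapping neighbours, MOGAT1 overlapped DGAT1, and the remaining neighbours were clear of each other. GPAM thus stood 7th in the initial state and 5th in steatosis, and AGPAT2 moved past GPAT4.

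**Figure D1:**
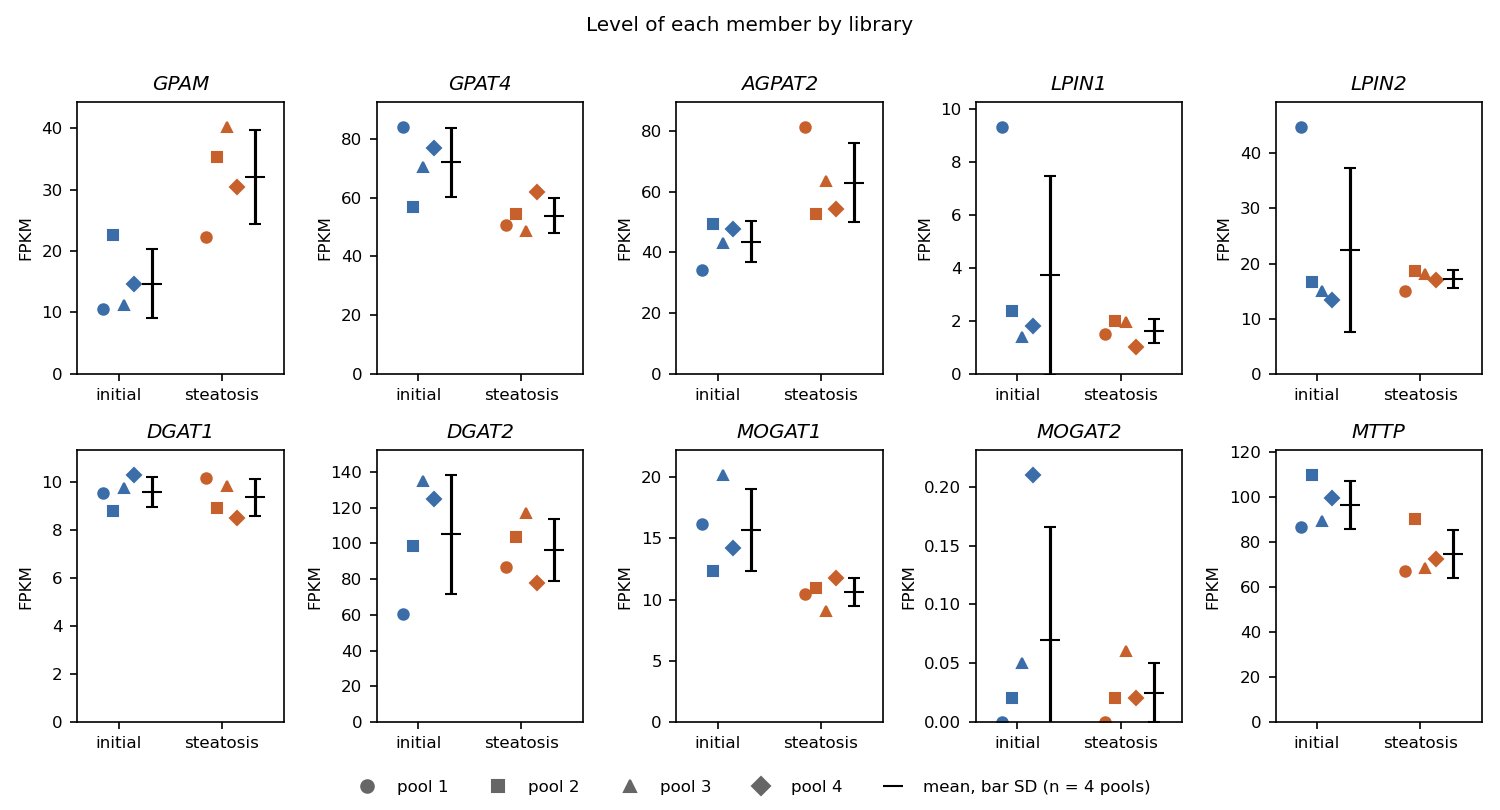
Level of each of the 10 genes in FPKM (vertical axes, each starting at 0) in the 4 initial and 4 steatosis pools. Symbols mark pool numbers, the horizontal mark is the mean, and the bar is the SD (n = 4 pools), ending at 0 where it would pass below. AGPAT2 and MOGAT1 show no overlap between groups, and pool 1 of the initial state stands high for LPIN1 (9.32 FPKM) and LPIN2 (44.8 FPKM).

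The groups were compared with limma over 13175 genes, with Benjamini-Hochberg adjustment over all of them. Of the 10 genes, 9 passed the filter on low levels. At an adjusted p under 0.05, GPAM and AGPAT2 were higher in steatosis (2 of 9, beside 26.7% of all genes tested), and GPAT4, MOGAT1 and MTTP were lower (3 of 9, beside 2.28%). The number of higher genes is therefore near the share of all genes. LPIN1, LPIN2, DGAT1 and DGAT2 did not pass. The stricter limits of the study, 0.01 for the adjusted p and 1 for the size of the log2 fold change, were also applied to this fit. By them GPAM was the only higher gene (6.01% of all genes tested) and 0 of the 9 were lower (0.334%). From its own comparison the study lists both GPAM and MOGAT1 as differentially expressed. Groups did not overlap for AGPAT2 among higher genes (29.6% of all tested) and MOGAT1 among lower genes (2.53%).

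All changes stand against a general shift. Over all genes tested the median log2 fold change was 0.25, whereas that of the 9 genes was -0.20. After median ratio scaling, which brings the typical gene to the same level in every library, the median of all genes was -0.01 and that of the 9 genes -0.47. In that scaling GPAM was higher (1 of 9, beside 11.6% of all genes) and GPAT4, MOGAT1 and MTTP were lower (3 of 9, beside 9.85%), while the stricter limits called 0 in either direction (3.11% and 0.641%). Blocking on pool number, the counts were 1 higher (25.7%) and 3 lower (2.6%), and with the stricter limits 1 higher (5.96%) and 0 lower (0.433%). Without pool 1 of the initial state they were 1 higher, GPAM, and 2 lower, MOGAT1 and MTTP. Shares of all genes were not computed for fits that left out a library. Because the libraries hold RNA of whole liver, fewer cells of a type and less RNA per cell cannot be told apart.

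**Figure D2:**
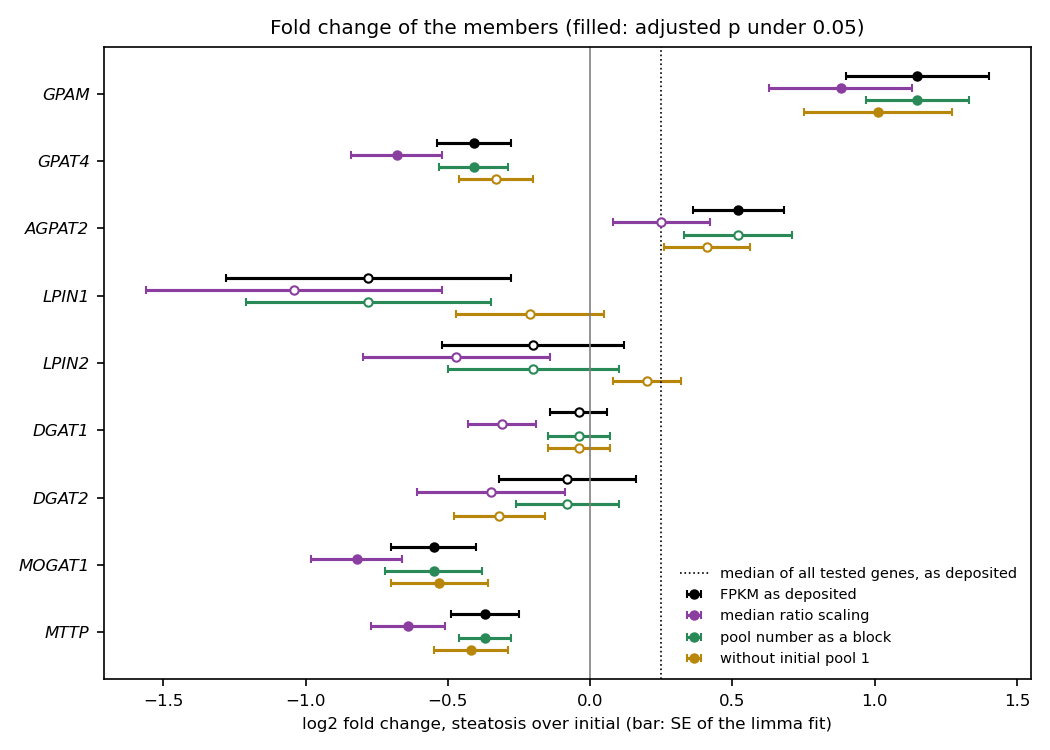
Log2 fold change of steatosis over initial state (horizontal axis) for the 9 tested genes, with the SE of the limma fit as bars, under the deposited scaling, median ratio scaling, a block for pool number, and with initial pool 1 left out. Filled points have an adjusted p under 0.05 and the dotted line is the median of all tested genes, 0.25. GPAM is the only gene on the right with filled points in all 4 fits, and MOGAT1 and MTTP are filled in all 4 on the left.

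GPAM showed the largest of the called changes, under the deposited and the median ratio scaling alike. It encodes the glycerol 3-phosphate acyltransferase of the outer mitochondrial membrane, which competes with fatty acid oxidation for acyl-CoA and is a known target of insulin and SREBP-1c. GPAM (gene 397629, chr14:122538600-122582390 in Sscrofa11.1) measured 10.59, 22.61, 11.13 and 14.66 FPKM in initial pools 1 to 4, and 22.2, 35.33, 40.21 and 30.42 FPKM in steatosis pools 1 to 4. Only pool 2 of the initial state reached the lowest steatosis pool, so the groups overlapped narrowly. The mean rose from 14.7 ± 5.54 to 32 ± 7.68 FPKM, a ratio of 2.17 (1.15 on the log2 scale, SE 0.25, adjusted p 0.00884). Every pool number showed the rise, by 0.64 to 1.84 on the log2 scale. Leaving out each library in turn kept the adjusted p under 0.05 in 8 of 8 fits, but above 0.01 without initial pool 1 (0.0194), 3 (0.0228) or 4 (0.0202) or steatosis pool 2 (0.028), 3 (0.026) or 4 (0.0235). Median ratio scaling gave 0.88 (SE 0.25, adjusted p 0.0372), and the block for pool number an adjusted p of 0.00436.

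GPAT4 makes the same product, lysophosphatidic acid, at the endoplasmic reticulum, and moved in the opposite direction. GPAT4 (gene 100152836, chr17:10705998-10724486) measured 84.12, 56.67, 70.34 and 76.89 FPKM in initial pools 1 to 4, and 50.59, 54.48, 48.56 and 62.08 FPKM in steatosis pools 1 to 4. Pool 2 of the initial state lay inside the range of steatosis, and the other initial pools lay above it. GPAT4 fell from 72 ± 11.7 to 53.9 ± 5.96 FPKM (-0.41 on the log2 scale, SE 0.13, adjusted p 0.0439). It was lower in 4 of 4 pool numbers, by -0.73 to -0.06. The call was close to its limit and was lost without initial pool 1 (adjusted p 0.0927), 3 (0.0725) or 4 (0.0916) and without steatosis pool 1 (0.0995), 2 (0.0862) or 3 (0.111), with log2 fold changes of -0.52 to -0.33 over the 8 fits. Under median ratio scaling it was -0.68 (adjusted p 0.0182), and the block for pool number gave an adjusted p of 0.0457.

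The balance of these isozymes was measured within each library, which takes out the scaling between libraries. The log2 ratio of GPAM to GPAT4 was -2.98, -1.32, -2.65 and -2.38 in the initial pools and -1.18, -0.62, -0.27 and -1.03 in the steatosis pools. Every steatosis pool lay above every initial pool. The means were -2.33 ± 0.72 and -0.78 ± 0.41, a difference of 1.56. A two-sided exact permutation test without pairing gave p = 0.0286, the smallest that 4 against 4 pools allow. After Benjamini-Hochberg adjustment over the 4 ratios compared it was 0.114. With pools paired by number the exact p was 0.125, the smallest that 4 pairs allow. In linear terms GPAM made up 17.3 ± 7.71% of the summed FPKM of both genes in the initial state (11.2 to 28.5%) and 37 ± 6.67% in steatosis (30.5 to 45.3%). The sum itself was 86.8 ± 7.53 FPKM and 86 ± 8.92 FPKM, a difference smaller than the spread between pools.

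**Figure D3:**
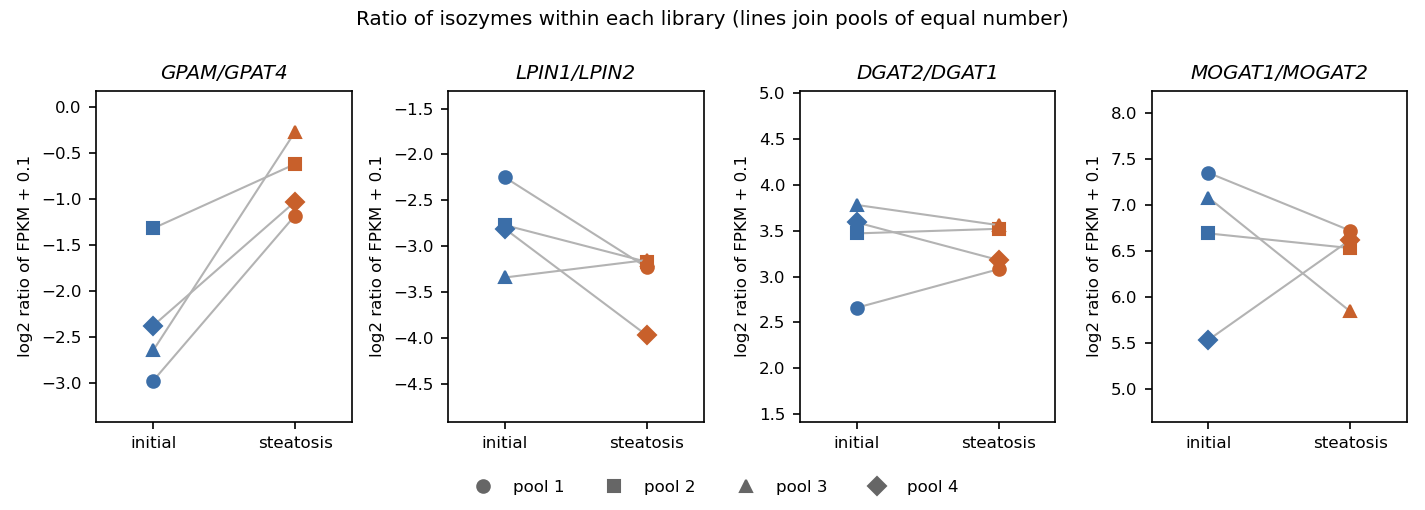
Log2 ratio of FPKM + 0.1 (vertical axes, all spanning the same number of log2 units) for 4 isozyme pairs in each library, with grey lines joining pools of the same number. GPAM/GPAT4 is higher in every steatosis pool than in any initial pool, with means of -2.33 and -0.78. DGAT2/DGAT1, LPIN1/LPIN2 and MOGAT1/MOGAT2 overlap between groups.

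AGPAT2 adds the second fatty acid and yields phosphatidic acid, and its loss causes a congenital lack of body fat in humans. AGPAT2 (gene 100170768, on a sequence not placed on a chromosome in Sscrofa11.1) measured 34.1, 49.32, 42.9 and 47.66 FPKM in initial pools 1 to 4, and 81.27, 52.7, 63.42 and 54.3 FPKM in steatosis pools 1 to 4. The groups did not overlap, although steatosis pools 2 and 4 lay close to the highest initial pool. AGPAT2 rose from 43.5 ± 6.83 to 62.9 ± 13.1 FPKM (0.52 on the log2 scale, SE 0.16, adjusted p 0.0359), and all 4 pool numbers were higher, by 0.10 to 1.25. Blocking on pool number gave an adjusted p of 0.0714, and with median ratio scaling the log2 fold change was 0.25 with an adjusted p of 0.332. The call was also lost without initial pool 1 (0.0725) or 3 (0.0648) and without steatosis pool 1 (0.08) or 3 (0.0783). Within its family, AGPAT2 held 50.4 ± 3.9% of the summed FPKM of AGPAT1 to AGPAT5 in the initial state (46.3 to 54%) and 60.8 ± 4.97% in steatosis (57.2 to 67.9%).

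The lipins remove the phosphate from phosphatidic acid and so feed both triglyceride and phospholipid synthesis. Lipin 1 also acts in the nucleus as a coactivator and is abundant in skeletal muscle. LPIN1 (gene 100170845, chr3:124940557-125074137) measured 9.32, 2.36, 1.39 and 1.82 FPKM in initial pools 1 to 4, and 1.52, 1.98, 1.95 and 1 FPKM in steatosis pools 1 to 4. Apart from pool 1 of the initial state the groups covered much the same range. The means were 3.72 ± 3.75 and 1.61 ± 0.459 FPKM (-0.78 on the log2 scale, SE 0.50, adjusted p 0.267), and without that pool it was -0.21 (adjusted p 0.583).

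LPIN2, the more abundant lipin in these livers, was also highest in pool 1 of the initial state. LPIN2 (gene 100187579, chr6:103625725-103728151) measured 44.8, 16.71, 15.04 and 13.4 FPKM in initial pools 1 to 4, and 15.09, 18.67, 18.11 and 17.1 FPKM in steatosis pools 1 to 4. The means were 22.5 ± 14.9 and 17.2 ± 1.58 FPKM (-0.20 on the log2 scale, SE 0.32, adjusted p 0.674). Without pool 1 of the initial state the sign turned, to 0.20 (SE 0.12, adjusted p 0.242), and 3 of 4 pool numbers were higher in steatosis. Both lipins were thus highest in the single library with 2864 FPKM of skeletal muscle markers and 2219 FPKM of stomach markers, and the part of that RNA in their level was not tested. The log2 ratio of LPIN1 to LPIN2 was -2.80 ± 0.45 in the initial state and -3.38 ± 0.39 in steatosis, a difference of -0.58 (exact permutation p = 0.114, adjusted 0.229). LPIN2 supplied 76.9 ± 1.24% and 78.6 ± 0.725% of the FPKM of the 3 lipins.

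**Figure D4:**
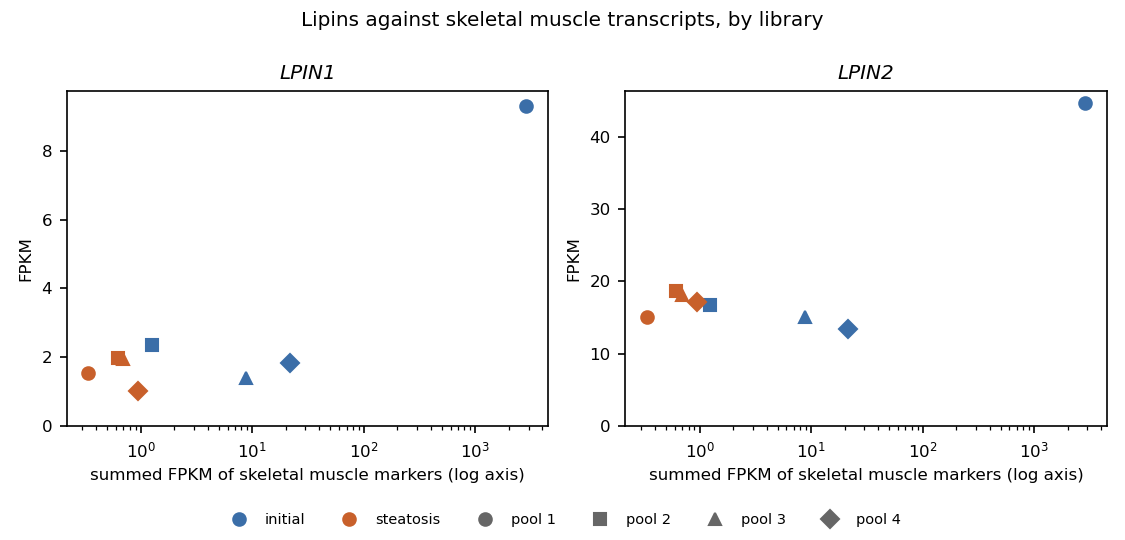
FPKM of LPIN1 and LPIN2 (vertical axes, from 0) against the summed FPKM of the skeletal muscle markers (horizontal log axis) in the 8 libraries, coloured by group and shaped by pool number. A single library, pool 1 of the initial state, lies far to the right at 2864 FPKM and has the highest level of both lipins, 9.32 and 44.8 FPKM.

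Diacylglycerol acyltransferases complete the molecule. DGAT1 also handles preformed fatty acids and other acceptors, and DGAT2 is linked to fatty acids newly made in the cell. DGAT1 (gene 397118, chr4:452890-463665) had the smallest SE of the tested genes and measured 9.53, 8.79, 9.77 and 10.3 FPKM in initial pools 1 to 4, and 10.18, 8.94, 9.85 and 8.51 FPKM in steatosis pools 1 to 4. Its means of 9.6 ± 0.627 and 9.37 ± 0.777 FPKM differed by less than the spread between pools (-0.04 on the log2 scale, SE 0.10, adjusted p 0.811).

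DGAT2 was the most abundant enzyme of the route in both states. DGAT2 (gene 100294675, chr9:10032163-10066082) measured 60.58, 98.73, 135.2 and 124.98 FPKM in initial pools 1 to 4, and 86.86, 103.31, 117.31 and 77.74 FPKM in steatosis pools 1 to 4. Initial pools held both the lowest and the highest value. The means were 105 ± 33.3 and 96.3 ± 17.6 FPKM (-0.08 on the log2 scale, SE 0.24, adjusted p 0.83), and pool numbers split, 2 higher and 2 lower, from -0.68 to 0.52. The lowest value belonged to pool 1 of the initial state, without which the log2 fold change was -0.32. DGAT2 supplied 91 ± 3.1% of the FPKM of both genes in the initial state and 91 ± 1.37% in steatosis, and the log2 ratio of DGAT2 to DGAT1 differed by -0.04 (exact permutation p = 0.943, adjusted 0.943).

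The monoacylglycerol acyltransferases re-esterify partly degraded glycerides. MOGAT1 (gene 100524113, chr15:124568449-124607925) measured 16.18, 12.32, 20.17 and 14.24 FPKM in initial pools 1 to 4, and 10.47, 10.98, 9.09 and 11.74 FPKM in steatosis pools 1 to 4. All steatosis pools lay below all initial pools. MOGAT1 fell from 15.7 ± 3.35 to 10.6 ± 1.12 FPKM (-0.55 on the log2 scale, SE 0.15, adjusted p 0.0243), and 4 of 4 pool numbers were lower, by -1.14 to -0.16. Median ratio scaling gave -0.82 (adjusted p 0.00686), and the block for pool number an adjusted p of 0.0457. The call was lost without steatosis pool 1 (0.0532) or 3 (0.068) and stood in the other 6 fits that left out a library.

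MOGAT2, the isozyme known from the small intestine, was at or near 0 in every library. MOGAT2 (gene 100312975, chr9:9937654-9951679) was listed at 0, 0.02, 0.05 and 0.21 FPKM in initial pools 1 to 4, and at 0, 0.02, 0.06 and 0.02 FPKM in steatosis pools 1 to 4, and was not tested. It lies 80483 bases from DGAT2 on the same chromosome, and these neighbours stood at opposite ends of the order of levels. The log2 ratio of MOGAT1 to MOGAT2 was 6.66 ± 0.80 and 6.43 ± 0.40, a difference of -0.23 (exact permutation p = 0.571, adjusted 0.762). It depended on the constant of 0.1 FPKM added to both genes, since with 1 FPKM added the difference was -0.46 (exact permutation p = 0.0286 before adjustment). MOGAT2 measured at most 0.21 FPKM, so with 1 FPKM added the ratio mostly followed MOGAT1. That p therefore cannot speak to the balance of the 2 genes.

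MTTP encodes the large subunit of the transfer protein that lipidates apolipoprotein B in the endoplasmic reticulum. MTTP (gene 397381, chr8:120820660-120871468) measured 86.5, 109.77, 89.35 and 99.58 FPKM in initial pools 1 to 4, and 67.19, 90.39, 68.32 and 72.5 FPKM in steatosis pools 1 to 4. Pool 2 was the highest of both groups, and it alone among the steatosis pools entered the range of the initial state. MTTP fell from 96.3 ± 10.6 to 74.6 ± 10.8 FPKM (-0.37 on the log2 scale, SE 0.12, adjusted p 0.0428), and each pool number was lower, within a narrow range of -0.46 to -0.28. Blocking on pool number gave an SE of 0.09 and an adjusted p of 0.0181. Median ratio scaling gave -0.64 (adjusted p 0.00781), whereas setting all libraries to a common sum of FPKM gave an adjusted p of 0.062. The call was lost without initial pool 2 (0.094), 3 (0.0525) or 4 (0.0819) and without steatosis pool 1 (0.106), 3 (0.109) or 4 (0.102), with log2 fold changes of -0.47 to -0.31 over the 8 fits.

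The partners of MTTP in VLDL assembly were taken as a list. Of 24 listed genes 22 were found and tested, of which 7 were lower (beside 2.28% of all genes tested), 2 were higher (beside 26.7%) and 13 did not pass, with a median log2 fold change of -0.12 beside 0.25 for all genes. APOB, the structural protein of the particle, did not pass, with 529 ± 90.5 FPKM in the initial state and 496 ± 64.6 FPKM in steatosis (-0.09, adjusted p 0.679). P4HB, the protein disulfide isomerase that forms the other subunit of the transfer protein, fell from 561 ± 60.7 to 439 ± 25.8 FPKM (-0.35, adjusted p 0.0306). CIDEB, a droplet protein that takes part in VLDL lipidation, fell from 253 ± 30.1 to 161 ± 26.8 FPKM (-0.65, adjusted p 0.00583).

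The COPII coat, which carries cargo out of the endoplasmic reticulum, accounted for 10 of the 22 tested genes. Of these 4 were lower (beside 2.28% of all genes tested) and 6 did not pass. They are a part of the VLDL list and were not a list of their own. SAR1B, the GTPase needed for large lipoprotein cargo, fell from 176 ± 16.9 to 130 ± 14.9 FPKM (-0.44, adjusted p 0.014). The coat subunits SEC13 (-0.37, adjusted p 0.0137) and SEC23A (-0.57, adjusted p 0.0206) also fell. KLHL12, an adaptor of the ubiquitin ligase that acts on the coat, rose from 7.35 ± 0.761 to 9.4 ± 0.585 FPKM (0.35, adjusted p 0.0326), but the block for pool number gave an adjusted p of 0.0599. The remaining called genes were SEC24D and APOC3 (lower) and CES1 (higher), and SEC24D lost its call with the block (0.0682). Without pool 1 of the initial state 6 were lower and 0 higher, with no share of all genes computed for that fit. With median ratio scaling 14 were lower (beside 9.85% of all genes) and 0 higher (beside 11.6%).

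Among the other isozymes of the route, 10 of 12 listed genes were tested, 3 were higher, near the share of 26.7% over all genes, and 1 was lower (beside 2.28%). AGPAT5, an acyltransferase of the family of AGPAT2, rose from 5.52 ± 0.921 to 7.88 ± 0.712 FPKM (0.51, adjusted p 0.0178). The lysophospholipid acyltransferases MBOAT1 (0.87, adjusted p 0.00511) and MBOAT2 (1.26, adjusted p 0.0205) also rose, MBOAT2 from only 0.27 ± 0.22 to 0.698 ± 0.0768 FPKM. In the initial state MBOAT2 reached the filter level of 0.3 FPKM in pool 1 alone. It passed the filter through the steatosis pools, which favours a call in that direction. AGPAT3 fell from 30.7 ± 3.74 to 24 ± 1.44 FPKM (-0.35, adjusted p 0.0333). The median log2 fold change of this list was 0.20. Under median ratio scaling it was -0.06, with 1 gene higher (beside 11.6% of all genes) and 2 lower (beside 9.85%). In that scaling AGPAT5 (adjusted p 0.195) and MBOAT2 (0.058) lost their calls.

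Genes that supply glycerol 3-phosphate gave 2 higher and 1 lower of 8 tested, beside 26.7% and 2.28% of all genes. AQP7, with the highest log2 fold change of the 7 pathway lists and a glycerol channel known mainly from adipose tissue, rose from 1.41 ± 1.05 to 6.49 ± 1.21 FPKM (2.39, adjusted p 0.00345). GPD1, the cytosolic enzyme that makes glycerol 3-phosphate from a glycolytic intermediate, fell from 66.9 ± 11.6 to 33.8 ± 6.86 FPKM (-0.99, adjusted p 0.00303). Its mitochondrial counterpart GPD2 rose from 0.84 ± 0.498 to 1.65 ± 0.204 FPKM (1.02, adjusted p 0.0286). The other 5, among them the glycerol kinase GK and the main hepatic glycerol channel AQP9, did not pass. The list had a median log2 fold change of -0.19. Under median ratio scaling the median was -0.46, with 1 gene higher and 3 lower (beside 11.6% and 9.85% of all genes), and GPD2 lost its call (adjusted p 0.0937).

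Phospholipid synthesis, which draws on the same diacylglycerol, had 4 higher and 0 lower of 14 tested genes (beside 26.7% and 2.28% of all genes) and a median log2 fold change of 0.28, close to that of all genes. CHKA, a choline kinase, rose from 10.3 ± 2.71 to 25.8 ± 4.07 FPKM (1.35, adjusted p 0.0012). LPCAT3, which places polyunsaturated fatty acids in phosphatidylcholine, rose from 17.6 ± 3.81 to 33 ± 0.89 FPKM (0.92, adjusted p 0.00154). PTDSS1 (0.38, adjusted p 0.00943) and PISD (0.47, adjusted p 0.0247), which make phosphatidylserine and convert it to phosphatidylethanolamine, rose as well. Under median ratio scaling 2 genes were higher, CHKA and LPCAT3 (beside 11.6% of all genes), and 1 was lower (beside 9.85%).

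The genes that control lipins or droplet formation at the endoplasmic reticulum, such as BSCL2, which encodes seipin, gave 0 calls in 8 tested. Of all genes tested 26.7% were higher and 2.28% lower. The median log2 fold change of these 8 was 0.06 as deposited. Under median ratio scaling it was -0.20, with 0 higher (beside 11.6% of all genes) and 3 lower (beside 9.85%). With the block for pool number 0 were higher (beside 25.7%) and 1 was lower (beside 2.6%). That gene was FITM1 (-0.82, adjusted p 0.0382 with the block and 0.0721 without). A further 10 tested genes use phosphatidic acid or diacylglycerol for signalling or for phosphatidylinositol synthesis. Of these CDS1 (0.97, adjusted p 0.0385) and PRKCD (0.53, adjusted p 0.0232) were higher and 0 lower (beside 26.7% and 2.28% of all genes called). Their list had a median of 0.18. Under median ratio scaling the median was -0.06, with 0 higher (beside 11.6%) and 2 lower (beside 9.85%). Without pool 1 of the initial state 1 of these genes was higher, with no share of all genes computed for that fit.

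**Figure D5:**
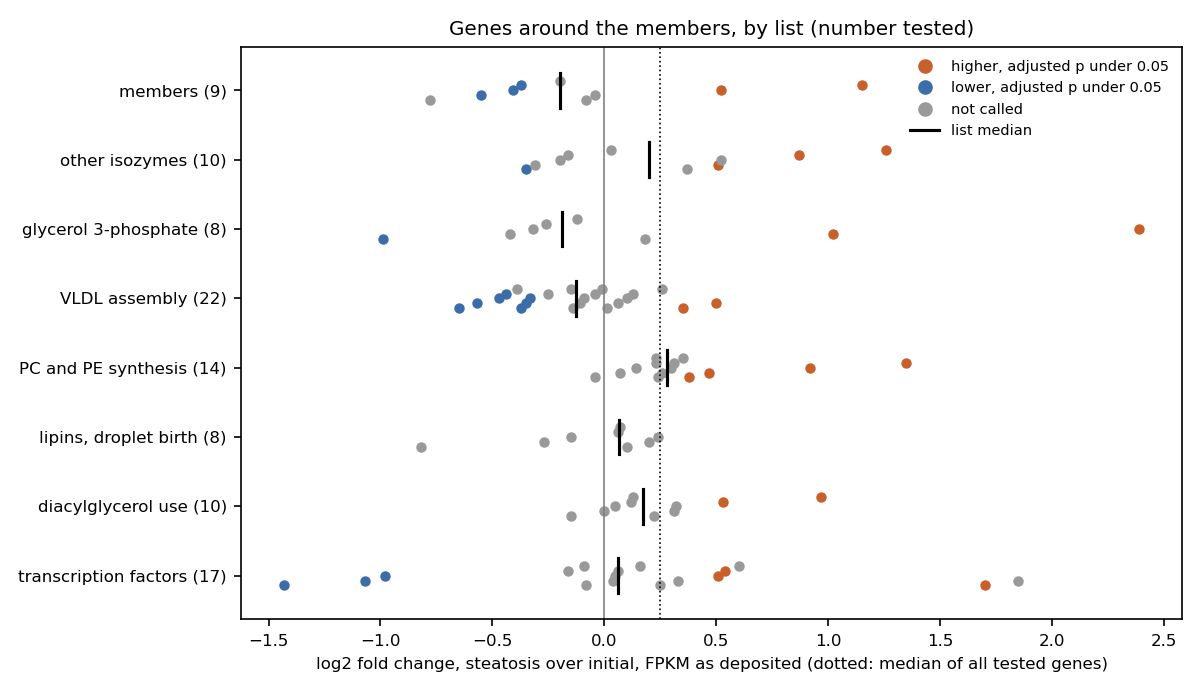
Log2 fold change of steatosis over initial state (horizontal axis, FPKM as deposited) for the tested genes of 8 lists, 1 point a gene, with the list median as a black bar, 0 as a solid line and the median of all tested genes (0.25) as a dotted line. The 9 tested genes of the route (named members) have a median of -0.20 and the VLDL genes of -0.12, and AQP7 lies furthest to the right at 2.39.

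Of 17 tested transcription factors known to act on these genes, 3 were higher (beside 26.7% of all genes), 3 were lower (beside 2.28%) and 11 did not pass. SREBF1, whose product SREBP-1c drives lipogenic genes including GPAM, rose from 7.8 ± 3.19 to 25.2 ± 9.31 FPKM (1.70, adjusted p 0.00454). NR1H3, the liver X receptor alpha that activates SREBF1, rose from 65.9 ± 7.31 to 95.5 ± 2.21 FPKM (0.54, adjusted p 0.00294), and CREB3L3 rose by 0.51 (adjusted p 0.0292). FOXA2, a hepatocyte factor, fell from 15.9 ± 3.23 to 7.47 ± 0.733 FPKM (-1.07, adjusted p 0.000742). NR0B2, a corepressor induced by bile acids through the farnesoid X receptor, fell from 19.2 ± 11.3 to 6.22 ± 1.01 FPKM (-1.43, adjusted p 0.0173). PPARGC1A, a partner of lipin 1, fell from 3.71 ± 2.2 to 1.66 ± 0.296 FPKM (-0.98, adjusted p 0.0422). These 3 lower factors were all highest in pool 1 of the initial state, at 20.71 FPKM for FOXA2, 34.68 FPKM for NR0B2 and 6.96 FPKM for PPARGC1A. PPARG, among the 11 that did not pass, measured 3.52 FPKM in that pool and 0.26, 0.19 and 0.12 FPKM in the other initial pools. In steatosis it measured 1.86 ± 0.376 FPKM (1.85, adjusted p 0.0893). Without pool 1 of the initial state 4 factors were higher and 3 lower, a fit for which the share of all genes was not computed. With median ratio scaling 1 was higher (beside 11.6%) and 3 were lower (beside 9.85%).

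Genes with the most similar pattern over the 8 libraries were listed as a description, by Pearson's r of log2(FPKM + 0.1). For MTTP these were PDK1 (0.99), PEX3 (0.97) and GHR (0.96). For GPAM they were RNF115 (0.98), AGPAT5 (0.97) and GMFB (0.97). For DGAT2, LCMT1 (0.95) and ACSM4 (0.94) are given. The 8 points share libraries and the difference between groups. These genes were picked for the highest r among the tested genes, so their r is raised by the search and was not tested.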

How the data were processed

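Poly-A RNA of liver was sequenced in 8 libraries, 4 per state. The authors filtered the reads and mapped them to the Sus scrofa 11.1 genome. Per the submitters' notes HISAT2 2.0.4, Bowtie2 2.2.5 and RSEM 1.2.12 were used. The authors deposited FPKM per gene for all libraries, with no stated scaling between them. A further 4 deposited files hold comparisons of single pools (fold changes and p-values) that were not used. Transcript lengths were read from them only to estimate depth.

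Coordinates are those of the RefSeq genes of Sscrofa11.1, matched by gene ID for 17778 of the 18103 rows. The other 325 rows are new transcripts. The 13175 genes that reached 0.3 FPKM in 4 or more of the libraries entered limma 3.58.1 (R 4.3.3) as log2(FPKM + 0.1). The model had a term for group and a trended variance, and p-values were adjusted after Benjamini and Hochberg. Fold changes on this scale are understated for low genes. Isozyme ratios were compared by two-sided exact permutation tests. Tables and plots were made with Python 3.11.15, numpy 2.4.6, pandas 2.3.3, scipy 1.17.1 and matplotlib 3.10.9. The code was tested on simulated data.

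Read counts were not analysed here. The step between low FPKM values of genes of 250 to 800 bases put every library between 93.7% and 100% of the deepest. Between 12466 and 13316 genes per library reached 0.3 FPKM. Precision is given as the SD or SE between pools.

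Deviations from the group means correlated at 0.163, 0.35, 0.317 and 0.247 between initial and steatosis pools of number 1, 2, 3 and 4. All exceeded 0.1, so the numbers from the sample titles were taken to pair the libraries, and blocking on pool number was tried as an alternative. Others were a common sum, upper quartile and median ratio scaling, a pseudocount of 1, no filter, a filter in 7 libraries, and each library left out in turn.

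The 10 genes, the 7 pathway lists and the 6 cell marker lists were chosen with earlier results of these data known. From each pathway list, all genes past a limit were to be named, or the 6 with the lowest adjusted p where more passed, with APOB and P4HB always. BSCL2, FITM1, GK, AQP9, SEC24D, APOC3, CES1 and PPARG were named after their values were seen. So were the markers ADIPOQ, PLIN1, CIDEC, LIPE, CIDEA, LEP, RETN, SI, MEP1A, FABP2, RBP2 and CDX2. For MTTP, GPAM and DGAT2 the 3 genes most similar over the libraries were to be named, of which 1 is not reported here.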

Additional observations from a re-analysis of the deposited data

Results flagged for a closer look

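Of 28 groups of 4 pools (10 genes and 4 ratios in each state), 3 held a pool far from the other 3 by Dixon's test, where chance gives about 1 in 20. LPIN1 in pool 1 of the initial state measured 9.32 FPKM, with a gap of 0.878 of the whole range to the nearest pool. LPIN2 in the same pool measured 44.8 FPKM, with a gap of 0.895 of the range. That library also held 2864 FPKM of skeletal muscle markers and 2219 FPKM of stomach markers. The log2 ratio of LPIN1 to LPIN2 was -3.97 in pool 4 of steatosis, with a gap of 0.904 of the range, where LPIN1 stood at 1 FPKM and LPIN2 at 17.1 FPKM.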

How the results depend on the processing

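Over the 9 tested genes and 15 alternatives, 105 of 135 log2 fold changes kept their direction and their side of an adjusted p of 0.05, 25 kept the direction but lost the call, and 5 turned sign. The turned values were LPIN2 without initial pool 1 (0.20), DGAT1 without steatosis pool 4 (0.01), and DGAT2 without initial pool 3 (0.07), initial pool 4 (0.03) or steatosis pool 4 (0.02), none of them called, and with each library left out LPIN2 ran from -0.38 to 0.20, DGAT1 from -0.08 to 0.01 and DGAT2 from -0.32 to 0.07. By the limits of the study, 1 gene was higher, and 0 under upper quartile scaling, median ratio scaling and no filter. At an adjusted p under 0.05, 2 genes were higher, and 1 under upper quartile scaling, median ratio scaling, no filter and the replicate block, which changed no other call among the 9. Genes lower at 0.05 numbered 3, and 1 (MOGAT1) without a filter, where more genes were tested and AGPAT2 (adjusted p 0.0521), GPAT4 (0.0582) and MTTP (0.0555) lost their calls. With a common sum of FPKM 2 were lower, without MTTP (0.062). The causes of these changes in calls were not tested. With each library left out, 0 to 1 genes were higher by the limits of the study, 1 to 2 were higher at 0.05 and 0 to 2 were lower. The lowest count of lower genes, 0, came without steatosis pool 1 or 3. A smaller number of pools enters each of these fits, and shares of all genes were not computed for them.

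The difference in log2 ratio ran from 1.34 to 1.89 for GPAM/GPAT4, from -0.77 to -0.39 for LPIN1/LPIN2, from -0.28 to 0.09 for DGAT2/DGAT1 and from -0.61 to -0.00 for MOGAT1/MOGAT2 with each library left out. With a pseudocount of 1, MOGAT1/MOGAT2 differed by -0.46 (exact permutation p = 0.0286 before adjustment), where the ratio mostly followed MOGAT1 because MOGAT2 was near 0. With pools paired by number, the GPAM/GPAT4 difference of 1.56 had an exact p of 0.125, the smallest that 4 pairs allow. FPKM without read counts leaves the counting error of low genes such as MOGAT2 unknown.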
